A study of Mus musculus with 10 samples.

Results

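The transcripts of 10 genes of DNA replication licensing and S phase were followed across the uteri of HSD17B1TG and WT mice. They were taken by gene symbol from a table of 29268 genes, and all 10 were found there, namely *Mcm2*, *Mcm3*, *Mcm4*, *Mcm5*, *Mcm6*, *Mcm7*, *Mcm10*, *Cdc6*, *Pcna* and *Tyms*. All 10 passed the filter on low counts and were tested, among 16993 genes in all.

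The samples were uterine tissue of females aged 4 months, 5 HSD17B1TG and 5 WT, with 1 RNA-seq library per mouse. HSD17B1TG mice carry a human *HSD17B1* cDNA, which encodes the enzyme that turns estrone into estradiol, driven by a CMV-enhanced chicken beta actin promoter that is active in nearly all tissues. The line is on the FVB/N background and was kept heterozygous, and WT mice lack the transgene. The labels give no cycle phase, litter or batch for any mouse. According to the study, estrous cycling is absent in the transgenic females. Its histology methods add that the phase of the WT mice was not selected. The mice are called TG1 to TG5 and WT1 to WT5 here, in the order of their sample records, and 1 of them, TG3, stood apart from its group in every one of the 10 genes, so results are given with and without it.

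A cell duplicates its genome once per cycle. In G1, CDC6 and its partners at replication origins load the ring of MCM2 to MCM7 subunits onto DNA, a step called licensing. In S phase, the ring becomes the moving helicase, MCM10 helps to start it, PCNA encircles the DNA as the sliding clamp of the polymerases, and thymidylate synthase, the product of *Tyms*, makes the thymidine precursor. The genes are transcribed mainly in cells about to divide, and in the mouse uterus estradiol drives division of the epithelium, whereas progesterone holds it back. In whole tissue, fewer dividing cells and less RNA per dividing cell cannot be told apart.

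With all 10 mice, none of the 10 genes passed the test between the genotypes. The fitted value was lower for 9 and higher for 1 in HSD17B1TG, with log2 fold changes between -0.64 for *Mcm6* and 0.01 for *Cdc6* (median -0.33, against 0.0021 over all genes tested). A gene was called if its Benjamini-Hochberg adjusted *p* over all genes tested was under 0.05, its fold change exceeded 2 and at least 1 group averaged more than 1 FPKM, a level per kilobase of gene that is scaled for sequencing depth. By edgeR's quasi-likelihood test 0 of 10 genes were called, against 4.24% of all genes, with adjusted *p* between 0.633 and 0.996. At an unadjusted *p* under 0.05, 0 of 10 passed, against 26.1% of all genes. DESeq2 and limma also called 0 of 10, although DESeq2 gave no adjusted *p* for 3 of them. The size of the change depended on the method. Limma voom put 10 of 10 lower, with log2 fold changes from -1.76 to -0.38 (median -0.99, adjusted *p* 0.138 to 0.531). Limma on log2 FPKM gave medians of -0.62 (pseudocount 1) and -0.99 (pseudocount 0.1). The intervals were wide, and the 95% interval of *Mcm5*, for example, ran from -2.20 to 1.49, so a change of 2-fold in either direction was within it.

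The level in each mouse showed 2 patterns inside the HSD17B1TG group. TG3 had the highest FPKM of all 10 mice in 10 of 10 genes, which was so for 12.0% of all genes tested. The other 4 HSD17B1TG mice lay below all 5 WT mice in 9 of 10 genes, *Mcm7* being the exception, and this was so for 6.04% of all genes. Both held for 1.78% of all genes. TG3 exceeded the mean of the other 4 HSD17B1TG mice by 3.10-fold in *Pcna* to 18.7-fold in *Mcm10* and the highest WT mouse by 1.34-fold in *Mcm7* to 2.31-fold in *Mcm10*. The 2 groups overlapped in all 10 genes (0 of 10 not overlapping, against 6.69% of all genes).

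**Figure D1:**
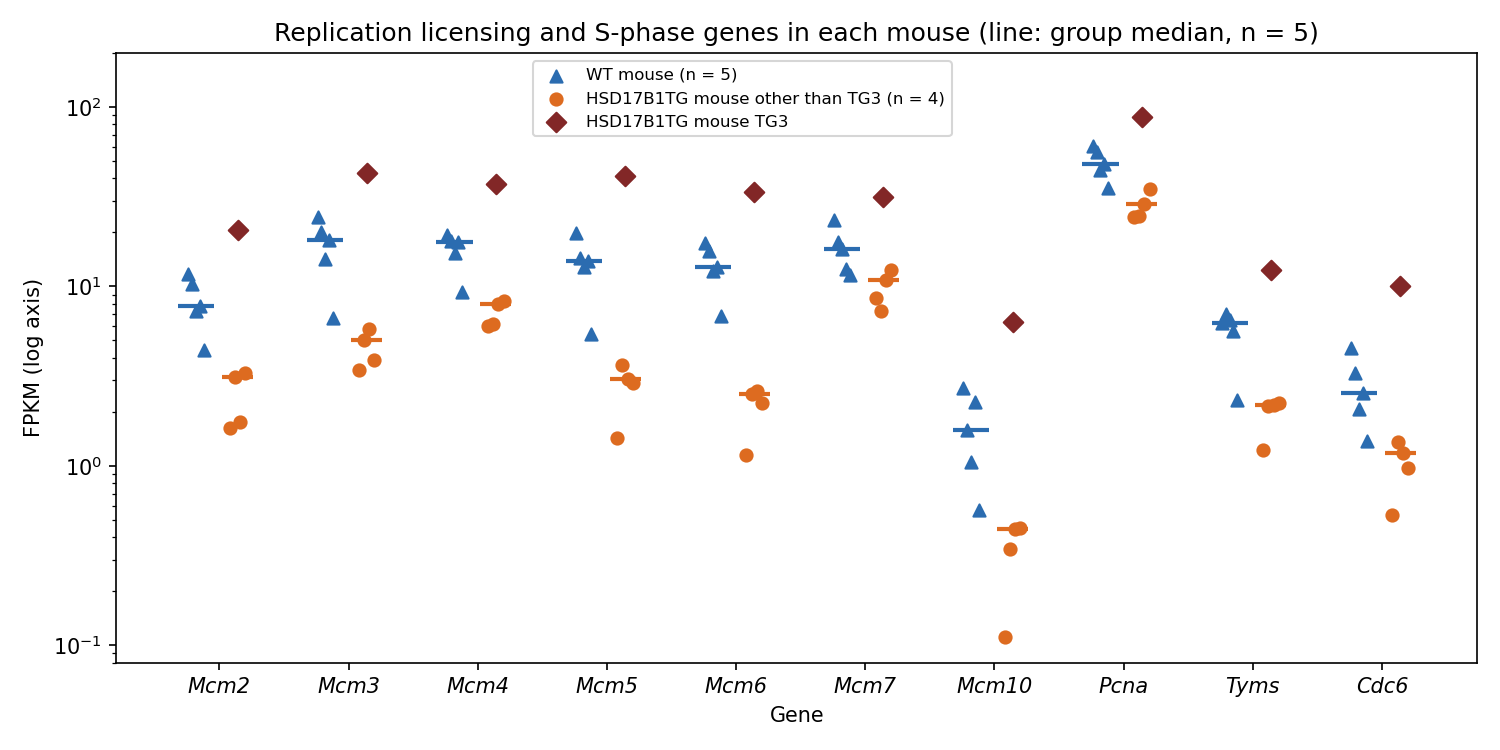
FPKM of the 10 genes (log axis) in each of 5 WT mice (triangles), 4 HSD17B1TG mice (circles) and HSD17B1TG mouse TG3 (diamond), with a line at each group's median over 5 mice. TG3 is the highest point in all 10 genes, and the other 4 HSD17B1TG mice lie below every WT mouse in all genes but *Mcm7*.

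The helicase subunits were taken first. *Mcm6* encodes a subunit of the ring. In HSD17B1TG mice TG1 to TG5 its FPKM were 1.15, 2.53, 33.6, 2.61 and 2.24, and in WT1 to WT5 they were 17.5, 15.7, 12.1, 12.8 and 6.86. TG3 was 1.92-fold above the highest WT mouse, and the other 4 were well below the lowest, WT5. With all mice the log2 fold change was -0.64 ± 0.84 (SE, edgeR adjusted *p* = 0.669), and without TG3 it was -2.63 ± 0.33 (edgeR adjusted *p* = 0.013), a level 6.18-fold lower.

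*Mcm5*, whose product sits next to MCM2 in the ring, gave FPKM of 1.44, 3.64, 41.2, 3.06 and 2.90 in TG1 to TG5. In WT1 to WT5 it gave 19.8, 14.4, 12.8, 13.9 and 5.45. Again TG3 was highest, WT5 was the lowest WT mouse, and the other 4 HSD17B1TG mice lay below WT5. Without TG3 the log2 fold change was -2.28 ± 0.38 (SE, edgeR adjusted *p* = 0.0165), and with it -0.36 ± 0.84 (adjusted *p* = 0.825).

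*Mcm3* FPKM were 3.43, 5.06, 42.9, 5.80 and 3.87 in TG1 to TG5, and 24.4, 20.2, 14.2, 18.2 and 6.64 in WT1 to WT5. *Mcm2* FPKM were 1.62, 3.13, 20.6, 1.76 and 3.31 in the HSD17B1TG mice, and 11.7, 10.3, 7.33, 7.76 and 4.42 in the WT mice. Both genes had the same order of extremes as *Mcm5*, with TG3 at the top and TG1 at the bottom. Without TG3 they were lower by -1.90 ± 0.35 and -1.78 ± 0.33 on the log2 scale (edgeR adjusted *p* = 0.018 and 0.0186).

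*Mcm4* FPKM were 6.05, 6.20, 37.4, 7.98 and 8.29 in TG1 to TG5, against 19.3, 17.9, 15.3, 17.8 and 9.28 in WT1 to WT5. The gap between TG5 and WT5 was small, 8.29 against 9.28. Without TG3 the log2 fold change was -1.18 ± 0.22 (edgeR adjusted *p* = 0.0188).

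*Mcm7* was the subunit with the smallest difference. Its FPKM were 8.65, 7.26, 31.5, 10.8 and 12.3 in TG1 to TG5 and 23.4, 17.7, 16.2, 12.5 and 11.6 in WT1 to WT5. TG5 lay above WT5, so the groups overlapped even without TG3, and the log2 fold change of -0.76 ± 0.23 then had an adjusted *p* of 0.0722 (edgeR). The *Mcm7* gene also differs in its surroundings. Its ends overlap the protein-coding genes *Cops6* and *Ap4m1* on the other strand by 64 and 421 bp, and *Mir25*, *Mir93* and *Mir106b* lie within it. Whether the counting used strand is not given in the sources used here, so reads in those stretches may belong to either gene. No other member overlaps an annotated gene.

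The unequal differences changed the balance of the 6 subunit transcripts. The ratio of *Mcm7* to *Mcm6* FPKM was 7.53, 2.87, 4.16 and 5.48 in TG1, TG2, TG4 and TG5, 0.938 in TG3, and 0.979 to 1.69 in the WT mice. The 4 mice thus lay above all WT mice and TG3 lay just below them. The ratio of *Mcm4* to *Mcm6* was 2.45 to 5.27 in those 4 mice, 1.11 in TG3 and 1.10 to 1.39 in the WT mice. The ratio of the highest to the lowest subunit was 2.87 to 7.53 in those 4 mice, 2.08 in TG3 and 1.97 to 2.63 in the WT mice. FPKM rest on the gene length of the table, which for several members exceeds that of the main transcript (6956 against 3371 bp in *Mcm2*). By the length of the main transcript, the ratio of highest to lowest subunit became 2.68 to 7.62 in the 4 mice, 1.44 in TG3 and 1.40 to 2.69 in the WT mice, so TG2 then lay just inside the WT range.

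**Figure D2:**
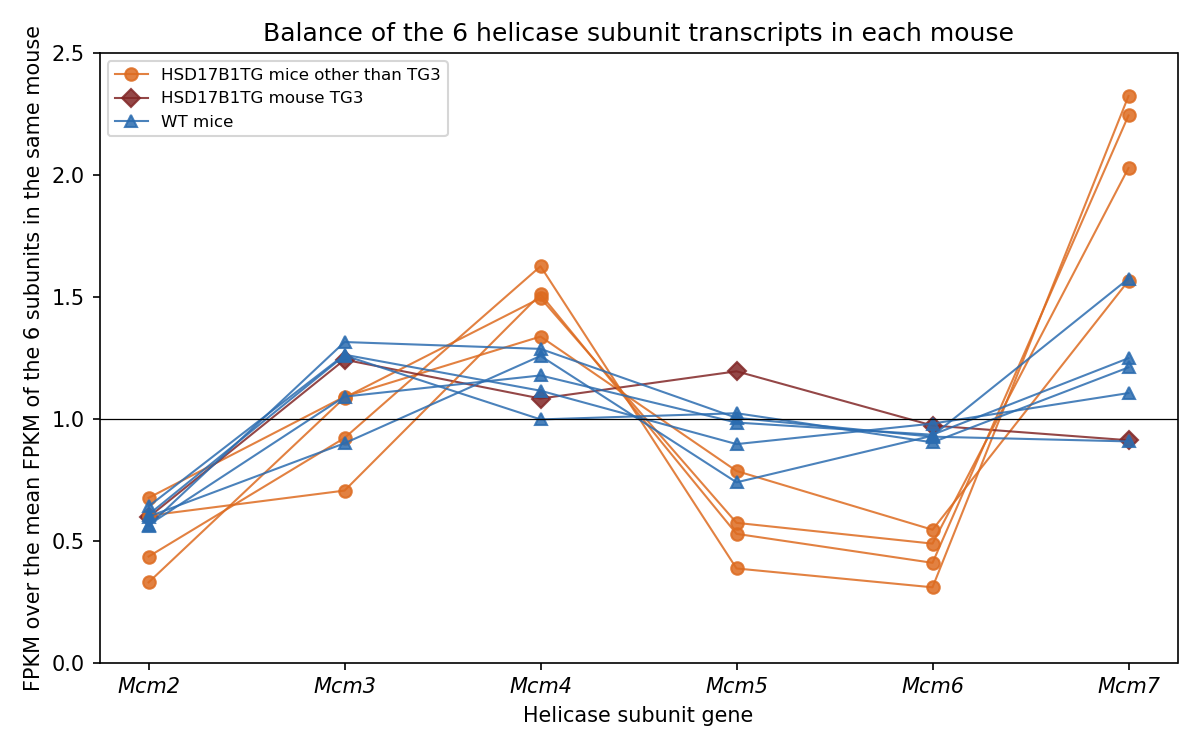
FPKM of each of the 6 helicase subunit genes divided by the mean of the 6 in the same mouse, 1 line per mouse. In the 4 HSD17B1TG mice other than TG3 (circles) *Mcm6* lies below and *Mcm4* above all WT mice (triangles). In all of these 4 but TG2, *Mcm5* also lies below and *Mcm7* above all WT mice. TG3 (diamonds) runs with the 5 WT mice, apart from a higher *Mcm5*.

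*Mcm10*, needed to start the loaded helicase, was the lowest of the 10 genes. Its FPKM were 0.112, 0.344, 6.31, 0.443 and 0.451 in TG1 to TG5, and 2.73, 1.59, 1.06, 2.28 and 0.565 in WT1 to WT5. On the log2 CPM scale (counts scaled to library size) it had the largest SD of the members within both groups, 2.10 in HSD17B1TG and 0.92 in WT, and TG1 counted 16 reads, the lowest count of any member. Its log2 fold change was -0.12 ± 0.95 with all mice and -2.30 ± 0.55 without TG3 (edgeR adjusted *p* = 0.953 and 0.0363).

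*Cdc6*, the loader of the helicase, had FPKM of 0.533, 1.36, 10.04, 1.17 and 0.971 in TG1 to TG5, and 4.56, 3.30, 2.08, 2.55 and 1.38 in WT1 to WT5. TG2 and WT5 nearly touched, at 1.36 and 1.38. With all mice its log2 fold change was 0.01 ± 0.73, the only positive one, and its sign turned with the scaling and the test. Without TG3 it was -1.48 ± 0.39 (edgeR adjusted *p* = 0.0495).

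*Pcna*, the sliding clamp, was the most abundant member. Its FPKM were 24.3, 24.7, 87.6, 28.9 and 34.9 in TG1 to TG5, and 60.3, 56.2, 44.6, 47.9 and 35.2 in WT1 to WT5. Without TG3 the log2 fold change of -0.82 ± 0.18 (edgeR adjusted *p* = 0.0318) was under the 2-fold limit, so *Pcna* was not called. The copy *Pcna-ps2*, which could take reads from it, had only 7 to 35 counts per mouse.

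*Tyms* FPKM were 1.22, 2.16, 12.3, 2.17 and 2.25 in TG1 to TG5, and 6.23, 7.05, 6.53, 5.68 and 2.32 in WT1 to WT5. WT1 to WT4 sat close together, and WT5 was nearly at the level of TG5. Its log2 fold change was -0.48 ± 0.59 with all mice and -1.53 ± 0.33 without TG3 (edgeR adjusted *p* = 0.65 and 0.0268).

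Without TG3, 8 of 10 genes were called lower in the HSD17B1TG mice, against 3.05% of all genes called lower and 5.17% called in either direction. In all, 9 of 10 had an adjusted *p* under 0.05 with a lower level, against 4.66% of all genes. The median log2 fold change of the 10 was -1.66, against -0.023 over all genes. A two-sided exact permutation test of each gene's log2 CPM, with 126 ways to assign 9 mice, gave *p* from 0.00794, the smallest it can give, for *Mcm6* to 0.0317 for *Mcm7*. With all 10 mice and 252 assignments the exact *p* lay between 0.0556 and 0.341. TG3 was singled out after its values were seen, and these *p* values do not allow for that choice. With a second mouse also left out, 1 gene (without TG4, against 0.332% of all genes called lower) to 8 genes (without WT4 or WT5, against 4.72% and 2.16%) were called, and every log2 fold change stayed negative. Leaving out any single mouse other than TG3 gave 0 calls among the 10. Over all genes, these fits called from 65 of 17329 (without TG5) to 1554 of 17344 (without WT4), so few calls were made anywhere in some of them.

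**Figure D3:**
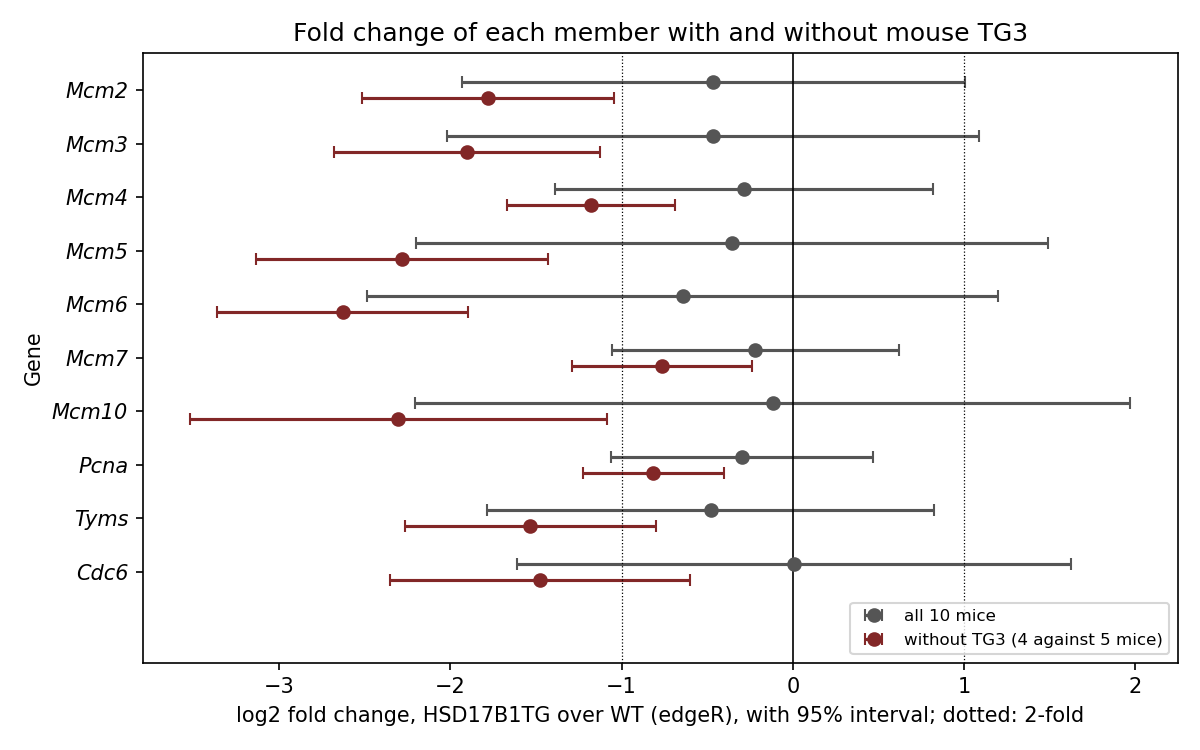
Log2 fold change of HSD17B1TG over WT (edgeR, with 95% intervals) for the 10 genes with all 10 mice (grey) and with 4 HSD17B1TG mice after leaving out TG3 (red). With all mice every interval spans 0. Without TG3 no interval does, and *Mcm7* and *Pcna* have the smallest changes.

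Over all members, the SD of log2 CPM was larger in HSD17B1TG than in WT for 10 of 10 genes, against 58.8% of all genes, with medians over the 10 genes of 1.498 and 0.62. This larger SD rested on TG3. Among the other 4 HSD17B1TG mice the SD was smaller than in WT for 10 of 10 genes, with a median of 0.46. The WT mice had an order of their own. WT5 was the lowest WT mouse in 10 of 10 genes and WT1 the highest in 9 of 10, *Tyms* being highest in WT2. TG1 was the lowest of all 10 mice in 9 of 10 genes, *Mcm7* being lowest in TG2. Counts of the 10 genes together made up 0.129% of the library in TG3, 0.0158% to 0.0221% in the other 4 HSD17B1TG mice and 0.0324% to 0.0775% in the WT mice. The total counts per library lay between 16544864 and 19451715 in HSD17B1TG and between 14817228 and 23271988 in WT, and TG3 did not lie at either end of the HSD17B1TG range.

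The order of the levels in WT was *Pcna* (48.8 ± 9.89 FPKM, SD, n = 5), then *Mcm3*, *Mcm7*, *Mcm4*, *Mcm5* and *Mcm6* (16.7 ± 6.73, 16.3 ± 4.71, 15.9 ± 3.97, 13.2 ± 5.13 and 12.99 ± 4.05), then *Mcm2* (8.30 ± 2.83), *Tyms* (5.56 ± 1.88), *Cdc6* (2.77 ± 1.22) and *Mcm10* (1.64 ± 0.879). The means of the 5 subunit genes after *Pcna* lay within the spread between mice. By the length of the main transcript, *Pcna* stayed first and *Tyms*, *Cdc6* and *Mcm10* stayed last, but the 6 subunits changed places.

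Promoters were searched because E2F factors are the textbook regulators of licensing genes. The letters searched were TTTCCCGC, TTTGGCGC, TTTCGCGC and TTTGCCGC on both strands, from 250 bases before to 50 after the start in RefSeq (GRCm38.p6). Windows were found for 9 members, all but *Mcm4*. Of these, 5 held a match (*Cdc6*, *Mcm3*, *Mcm5*, *Mcm6* and *Mcm7*), against 2.6% of 27025 genes with a window. *Mcm6* and *Mcm5*, the subunits with the largest differences without TG3, held overlapping matches on opposite strands upstream of the start, and so their stretches are shown with matched letters in capitals. The *Mcm6* stretch covers positions -130 to -31 from the start (chr1:128359736-128359835, minus strand), and the *Mcm5* stretch positions -180 to -81 (chr8:75109329-75109428, plus strand).
Mcm6: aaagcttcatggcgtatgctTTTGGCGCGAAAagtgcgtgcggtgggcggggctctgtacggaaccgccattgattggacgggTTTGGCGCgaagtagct
Mcm5: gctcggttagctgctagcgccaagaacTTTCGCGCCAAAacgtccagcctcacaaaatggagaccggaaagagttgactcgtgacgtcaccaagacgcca
In *Mcm6* the matches began at -110 and -106, which overlap, and at -47, and in *Mcm5* at -153 and -149, which overlap. *Mcm7*, with the smallest difference among the subunits, also held matches, at -165 and 17 in its window at chr5:138171834-138172133. Its window at another start, chr5:138171217-138171516, held 0, and which start is used in the uterus was not tested. *Mcm2* and *Mcm10* held 0, so a match in any window of a gene did not separate members with large and small differences. Among the wider set of replication and cycle genes described next, 27 of 99 genes with a window held a match. In its G2 and mitosis genes it was 1 of 15. A match of letters does not show that a factor binds there.

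The wider machinery was read from 125 genes in 9 lists. With all mice, 0 of the 124 tested were called higher and 1 lower, against 2.16% and 2.08% of all genes. Without TG3, 64 of 125 were called lower and 0 higher, against 3.05% and 2.12% of all genes. TG3 was the highest mouse in 96 of the 125, against 12.0% of all genes, and the other 4 HSD17B1TG mice were below all WT mice in 73, against 6.04%. The lists differed in how far they followed the 10 genes.

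Of 11 origin recognition and licensing genes, 3 were called lower without TG3, and the median log2 fold change was -0.37. *Orc3* and *Orc2*, subunits of the origin recognition complex, did not pass with all mice (log2 fold change -0.36 ± 0.10 and -0.21 ± 0.17, edgeR adjusted *p* = 0.0516 and 0.46). TG3 was not raised in *Orc3*, at 5.65 FPKM against 5.44 to 6.30 in the other 4 and 7.28 to 7.68 in WT. Of 16 origin firing genes, 9 were called lower without TG3 (median -1.25), and TG3 was highest in 15. *Gins1*, part of the active helicase with the MCM ring, had 1.27 to 1.87 FPKM in the 4 mice, 8.10 in TG3 and 2.90 to 6.46 in WT. *Cdc7*, the kinase that fires origins, was an exception to the order of WT mice, with WT5 the highest at 8.94 FPKM.

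Of 12 DNA polymerase and primase genes, 6 were called lower without TG3 (median -0.84). *Pold2*, a subunit of polymerase delta, was among them at -1.06 ± 0.20 (edgeR adjusted *p* = 0.0189), whereas *Pold3*, another subunit of that enzyme, gave 0.36 ± 0.19 (adjusted *p* = 0.263). Of 17 genes of clamp loading, single-strand binding and Okazaki fragment processing, 5 were called lower (median -0.998), and TG3 was highest in 16. *Rfc4*, of the complex that loads PCNA, gave -1.10 ± 0.23 (edgeR adjusted *p* = 0.0255) without TG3, and *Rnaseh2b*, of ribonuclease H2, gave -0.76 ± 0.20 (adjusted *p* = 0.0495), under the 2-fold limit. Of 14 nucleotide supply genes, 9 were called lower (median -1.43). *Cad* and *Umps*, both of pyrimidine synthesis, gave -1.55 ± 0.27 and -1.31 ± 0.35 (adjusted *p* = 0.0169 and 0.0484). For *Cad* the TG3 level of 11.8 FPKM lay within the WT range of 9.10 to 15.5.

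Of 12 replication-coupled chromatin and fork genes, 10 were called lower without TG3 (median -1.92), and TG3 was highest in 12 of 12. *Tipin*, which steadies the fork, gave -1.07 ± 0.17 (edgeR adjusted *p* = 0.0162), and *Nasp*, a histone chaperone, gave -0.97 ± 0.23 (adjusted *p* = 0.0351), just under the 2-fold limit. Of 13 genes of the E2F and RB family, 3 were called lower (median -0.43). *E2f7*, a repressor of the family that is itself made in S phase, gave -2.85 ± 0.54 (adjusted *p* = 0.0199) but had under 1 FPKM on average in both groups and so was not called. *E2f5* gave 0.22 ± 0.21 (adjusted *p* = 0.531).

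The G2 and mitosis genes went furthest. All 18 were called lower without TG3, with a median log2 fold change of -3.01, and TG3 was highest in 18 of 18. With all mice 0 of 18 were called (median -0.55). *Nusap1*, of the mitotic spindle, had 0.489 to 1.02 FPKM in the 4 mice, 14.7 in TG3 and 1.71 to 8.46 in WT, with WT5 lowest. *Ccnb2*, a cyclin of mitotic entry, had 0.911 to 3.20 FPKM in the 4 mice, 41.9 in TG3 and 4.18 to 22.4 in WT.

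Of the 12 genes of cyclin D, CDK4/6 and the CDK inhibitors, which act before S phase, 1 was called lower without TG3, against 3.05% of all genes (median of the list -0.33). The list did not share 1 direction. With all mice, 7 of the 11 tested were higher in HSD17B1TG and 4 lower (median 0.07), and 0 were called higher in either fit. TG3 was highest in 4 of 12, against 12.0% of all genes. The gene called was *Ccnd2*, a D cyclin, and it was also the only gene of the 125 called with all mice (log2 fold change -1.32 ± 0.27, edgeR adjusted *p* = 0.0274). Its FPKM were 3.14, 3.24, 3.57, 3.85 and 2.59 in TG1 to TG5, so TG3 sat with its group, and 6.55, 11.5, 10.8, 3.84 and 8.02 in WT1 to WT5. TG4 and WT4 had nearly the same level. The call was lost when TG2, TG4, TG5, WT2, WT3 or WT5 was left out, which gave 0 calls among the 125. Calls fell over all genes too in these fits, to between 65 of 17329 (without TG5) and 149 of 17308 (without TG4), against 721 of 16993 with all mice.

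Among 14181 protein-coding genes outside these lists, the 5 that tracked the mean of the 10 members most closely over the 10 mice were *Bora*, *Ezh2*, *Atad2*, *Oip5* and *Lsm2*, with Pearson r of log2 CPM between 0.9898 and 0.9929 over 10 mice. The r describes mice that share 1 extreme, TG3. All 5 were highest in TG3. *Bora*, which helps to switch on the mitotic kinase PLK1, had 7.71 FPKM in TG3, 1.05 to 1.63 in the other 4 and 2.23 to 3.94 in WT. *Ezh2*, the histone methyltransferase of Polycomb, had 10.1 in TG3, 2.27 to 3.25 in the other 4 and 3.52 to 5.93 in WT.

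Markers of the tissue were compared in the same mice as mean log2 CPM over each list. In genes that estrogen induces in the uterus, TG3 (9.81) lay with the other 4 HSD17B1TG mice (8.76 to 10.2) and above WT (3.67 to 8.68). In genes that progesterone induces, TG3 (0.40) lay just under the other 4 (0.63 to 0.76) and below WT (2.26 to 4.78). TG3 therefore differed from its group in the replication genes while these lists placed it with or next to its group. Epithelial markers were 8.76 in TG3, 6.97 to 9.13 in the other 4 and 6.40 to 8.02 in WT. Stromal markers were 7.68 in TG3, 7.28 to 8.88 in the other 4 and 9.02 to 9.58 in WT. Smooth muscle markers were 8.73, 7.59 to 10.6 and 6.56 to 10.4 in the same order. These defining lists of the uterus were present in every mouse. With all mice, calls lower in HSD17B1TG were made in 5 of 8 stromal, 3 of 5 NK cell and 4 of 6 tested progesterone-induced genes, against 2.08% of all genes. Calls higher were made in 3 of 8 estrogen-induced, 1 of 4 pan-leucocyte (*Laptm5*) and 1 of 6 macrophage genes (*Cd68*), against 2.16%, and the other lists had 0 calls. Without TG3, the stromal and progesterone-induced lists had 4 and 3 calls lower, and the lymphocyte list had 1 higher (*Trac*).

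Lists of immune and vascular cells did not set TG3 above its group. Pan-leucocyte markers were 4.45 in TG3, 4.44 to 4.69 in the other 4 and 4.29 to 5.52 in WT. Macrophage markers were 4.78 in TG3, 5.03 to 5.88 in the other 4 and 4.77 to 5.29 in WT. T and B lymphocyte markers were -0.32 in TG3, -0.0062 to 0.41 in the other 4 and -0.73 to -0.24 in WT. Neutrophil markers were -1.12 in TG3, within the -1.17 to 0.28 of the other 4. In these last lists *Ms4a1* and *Retnlg* were at or near 0 in TG3 and in most other mice (at most 0.0316 and 0.271 FPKM). TG3 lay above all WT mice in 1 gene of each of the lymphocyte, neutrophil, macrophage and pan-leucocyte lists (*Cd79b*, *S100a9*, *Cd68* and *Laptm5*), all named after their values were seen, and within or below the WT range in their other genes. Endothelial markers were 3.59, 3.47 to 5.54 and 4.89 to 6.10 in the same order. The markers of NK cells (-0.86, -1.27 to 0.70 and 0.57 to 3.41), glands (-1.75, -2.26 to -0.99 and -0.82 to 3.41) and oviduct (1.54, 1.20 to 2.10 and 1.75 to 2.84) also kept TG3 inside the range of its group. The gland values rest on genes near the floor, and 2 of 5 were tested. In HSD17B1TG mice *Prss28* was 0, *Prss29* and *Spink1* were at most 0.0902 and 0.147 FPKM, and *Cxcl15* was 0 outside TG5. *Foxa2* averaged 3.32 FPKM in HSD17B1TG and 3.88 in WT (log2 fold change -0.23 ± 0.64, edgeR adjusted *p* = 0.851). The part of any of these lists in the levels of the 10 genes was not tested.

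**Figure D4:**
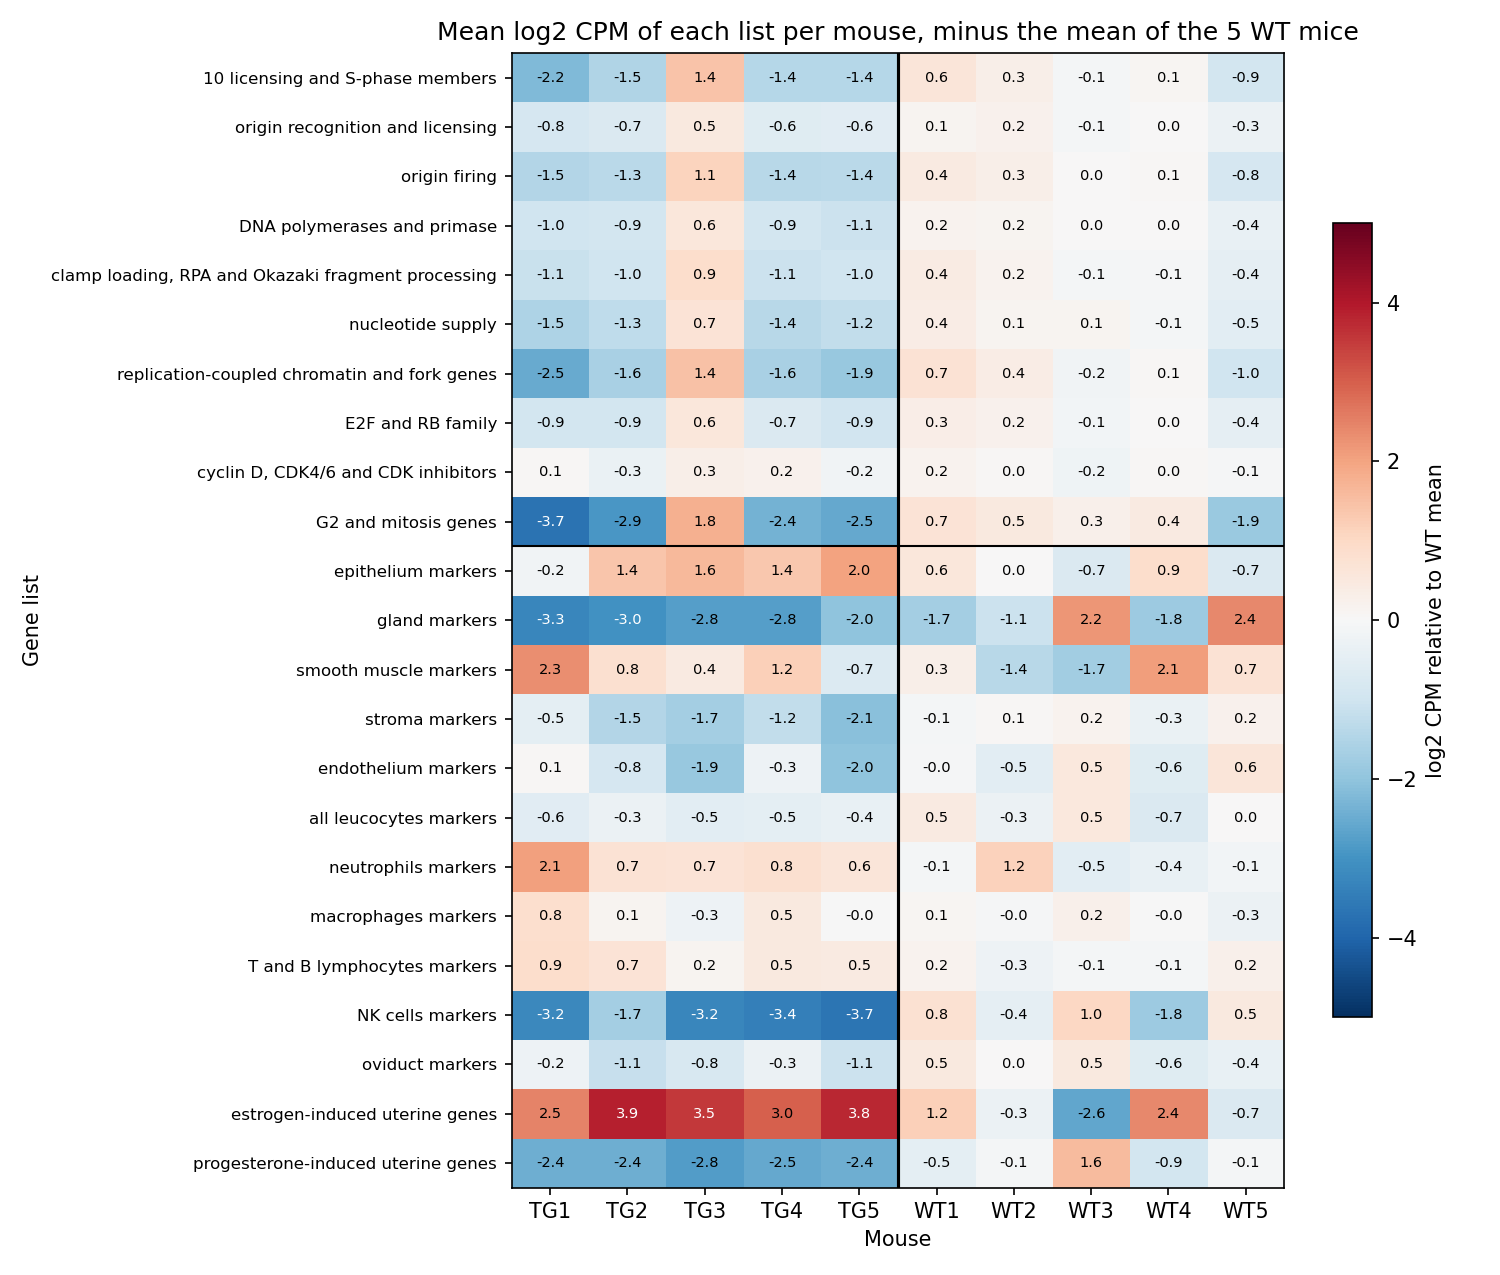
Mean log2 CPM of each gene list (rows) in each mouse (columns), minus the mean of the 5 WT mice, on a colour scale from -5 (blue) to 5 (red), with the 10 members and the replication and cycle lists above the line and tissue markers below it. TG3 is red in the members and most cycle lists where the other 4 HSD17B1TG mice are blue, and it lies close to them in the estrogen-induced and progesterone-induced genes.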

How the data were processed

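Paired-end reads (150 bp) of uterine RNA were mapped by the authors with HISAT2 2.0.5 to the mouse genome with Ensembl 94 annotation (GRCm38). How reads were counted, and whether by strand, is not given in the sources used here. The raw count and the FPKM of each gene and mouse were used as deposited by the authors, whose FPKM follow a DESeq2 size factor per mouse. Deposited normalized counts, the authors' fold changes, *p*-values and enrichment tables were not used. The main test used edgeR 4.0.16 under R 4.3.3 on the counts (filterByExpr, TMM, quasi-likelihood test), with DESeq2 1.42.0 and limma 3.58.1 (voom, or log2 FPKM with a pseudocount of 1 or 0.1) as alternatives, and each mouse was left out in turn. The methods were tested on simulated counts. Log2 CPM used a prior count of 2. Mice were grouped by genotype label, with 1 library per mouse, so *p* values measure spread between mice. The members and lists were chosen with earlier results of these data known. Named genes were the members, the genes of each pathway list with an adjusted *p* under 0.05 or otherwise the 2 with the smallest *p*, and the 5 genes most like the members, beside marker genes at or near 0. *Cd79b*, *S100a9*, *Cd68*, *Laptm5*, *Trac* and *Foxa2* were named after their values were seen.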

Additional observations from a re-analysis of the deposited data

Results flagged for a closer look

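One mouse of its group stood apart from the other 4 in the gap to its neighbour divided by the group's range, with 0.71 as the 95% limit for 5 mice. Among HSD17B1TG mice this was TG3, the highest, in all 10 members on the linear FPKM scale. On log2 FPKM it passed in 7 of 10, with *Mcm7* (0.640), *Mcm10* (0.654) and *Cdc6* (0.680) under the limit. The values on the linear scale were 0.911 for *Mcm2*, 0.940 for *Mcm3*, 0.929 for *Mcm4*, 0.945 for *Mcm5*, 0.955 for *Mcm6*, 0.792 for *Mcm7*, 0.945 for *Mcm10*, 0.833 for *Pcna*, 0.908 for *Tyms* and 0.913 for *Cdc6*. In the mean log2 CPM of a list it was again TG3 for 8 lists, with 0.806 for origin recognition and licensing, 0.943 for origin firing, 0.892 for polymerases and primase, 0.931 for clamp loading, 0.866 for nucleotide supply, 0.768 for chromatin and fork genes, 0.846 for the E2F and RB family and 0.761 for G2 and mitosis. In WT only the G2 and mitosis list passed, through its lowest mouse, WT5, at 0.833. In all, 19 of 40 groups passed, chance passes about 1 in 20, and the genes are not independent of each other.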

How the results depend on the processing

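The 10 members gave 0 calls under every normalization, filter, threshold and test tried with all mice, and 0 to 8 when 1 mouse was left out, 8 without TG3. No paired analysis was possible because the sample titles share only 1 ending number between the groups, which no label ties to a litter, batch or day, and the replicate numbers used here follow the order of the records. The log2 fold change of *Cdc6* turned negative with upper-quartile factors (-0.079), library totals (-0.11), no filter (-0.011), voom (-0.75), log2(FPKM + 1) (-0.37) and log2(FPKM + 0.1) (-0.68), and ranged from -1.48 to 0.28 with 1 mouse left out and from -1.66 to -1.23 with TG3 and 1 more left out. That of *Mcm10* ranged from -2.30 to 0.19 with 1 mouse left out and from -2.52 to -1.98 with TG3 and 1 more left out. DESeq2 gave 3 members no adjusted *p*. Over all genes, 721 calls became 1583 with DESeq2 and 65 (without TG5) to 1554 (without WT4) with 1 mouse left out. The lists of 125 genes gave 5 calls with DESeq2, 2 with voom, 2 with either log2 FPKM fit and 0 to 64 with 1 mouse left out. Library totals alone shifted the median log2 fold change by -0.18 and split the calls into 286 higher and 494 lower, against 367 and 354. The cause of these shifts was not tested.

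Further fits without TG3 were added after seeing the data. Members called were 7 with DESeq2 size factors, 8 with upper-quartile factors, 7 with no filter, 8 with DESeq2, 5 with voom and 9 by adjusted *p* alone, against 2.86%, 3.26%, 1.66%, 4.94%, 1.51% and 4.66% of all genes called lower. Calls among the 125 genes were 63, 66, 62, 68, 42 and 76 in the same order, and over all genes 1803 with DESeq2 and 1368 by adjusted *p* alone. With a second mouse also left out, members called were 7 (TG1), 4 (TG2), 1 (TG4), 4 (TG5), 5 (WT1), 4 (WT2), 5 (WT3), 8 (WT4) and 8 (WT5), against 3.26%, 1.25%, 0.332%, 0.832%, 1.43%, 1.20%, 1.58%, 4.72% and 2.16% of all genes in the same order. The lowest member count was 16 in HSD17B1TG and 89 in WT.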
